A study of Mus musculus with 9 samples.

Results

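miR-140 is a microRNA (miRNA) whose hairpin precursor gives rise to 2 mature products, miR-140-5p from its 5′ arm and miR-140-3p from its 3′ arm. Both arms were read here from small RNA sequencing of mouse quadriceps muscle, as 2 of the 1966 mature miRNAs listed in the table of raw counts. The table names them mmu-miR-140-5p and mmu-miR-140-3p. They were chosen by their measured levels in an earlier look at the same libraries, in which the arms differed unequally between Mbnl1 knockout and wild-type muscle. Values of that contrast, and of the contrast between the knockouts, which uses the same Mbnl1 knockout libraries, are therefore given as a description without a test. The Mbnl2 knockout libraries had no part in the choice, and the comparison of Mbnl2 knockout with wild type was tested. The wild-type libraries of that test did take part in the choice, so its result is not independent of it, and a choice on higher miR-140-5p in a knockout favours low wild-type values.

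The 9 libraries came from mice aged 90 days, 3 libraries per group. WT mice were C57BL/6J with the genotype Mbnl1+/+ Mbnl2+/+. Mbnl1KO mice were C57BL/6J with Mbnl1 ΔE3/ΔE3 and Mbnl2+/+. Mbnl2KO mice were Mbnl1+/+ and are labelled with the strain B6.C-Tg(CMV-cre)1Cgn/J, which carries a Cre transgene driven by the CMV promoter. Their Mbnl2 alleles are labelled ΔE2/ΔE2 in replicate 1, ΔE2/ΔE3 in replicate 2 and ΔE2/ΔE4 in replicate 3, so that each Mbnl2KO library has its own allele label. The published description of these mice gives a single allele combination, ΔE2/ΔE2, and whether the differing labels are correct is not settled. In comparisons of Mbnl2KO with WT the strain label and the Mbnl2 genotype cannot be told apart, and within Mbnl2KO an allele label cannot be told apart from the mouse that carries it. Whole muscle was sampled, which holds connective tissue, vessels, nerves and blood cells beside muscle fibres. In such bulk samples, fewer cells of a type and less RNA per cell cannot be told apart.

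The splicing factors MBNL1 and MBNL2 act on RNA directly and bind short motifs of the form YGCY, in which Y stands for a pyrimidine. A miRNA precursor is cut from its primary transcript by Drosha and then by Dicer, which leaves a duplex of both arms. As a rule one strand of the duplex is loaded into an Argonaute protein and the other is degraded, so that arms of the same hairpin can accumulate to different levels although they are transcribed together. miR-140 is known above all from cartilage, where chondrocytes express it together with its host gene Wwp2, which encodes a ubiquitin ligase, and where the transcription factor SOX9 drives the locus. Mice without miR-140 have defects of skeletal growth and of cartilage maintenance. It is not counted among the miRNAs typical of muscle fibres.

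The hairpin is shown because its layout defines both arms, with the bases of miR-140-3p in capitals, and the mature miR-140-3p is shown with its seed, bases 2 to 8, in capitals. Sequences are from RefSeq (GRCm38.p6), in which 1 of the 2 mature arms was matched.
mir-140 hairpin, chr8:107551244-107551313, plus strand: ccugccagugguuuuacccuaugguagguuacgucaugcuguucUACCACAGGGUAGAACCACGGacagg
miR-140-3p, chr8:107551288-107551308, plus strand: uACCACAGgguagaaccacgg

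The hairpin is 70 bases long, and miR-140-3p takes up its bases 45 to 65. On the GRCm39 build the same 70 bases matched chromosome 8 at a single place on the plus strand, chr8:108277876-108277945, which is the annotated Mir140 gene. It lies within Wwp2 (chr8:108162988-108286023, plus strand), in intron 16 of the canonical transcript with 24 exons. That intron is 2141 bases long (chr8:108276768-108278908). Of 34 annotated Wwp2 transcripts, 25 have the hairpin in an intron. In 1 of them, a retained-intron transcript, it lies in an exon (chr8:108277527-108280179).

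The minimum free energy structure predicted by RNAfold had an energy of −39.1 kcal/mol, against a median of −28 kcal/mol over 457 RefSeq mouse hairpins of 60 to 80 bases. Per base, 7.88% of these hairpins had a lower energy. In the prediction, 20 of the 21 bases of miR-140-3p were paired, with partners between bases 5 and 26 of the opposite arm, and the apical loop was formed by bases 35 to 37. YGCY was searched as its 4 spellings on the transcribed strand only. UGCU occurred once, at bases 37 to 40, and 34.6% of the 457 hairpins hold it. UGCC occurred once, at bases 3 to 6, and 28.2% hold it. CGCU (10.1%) and CGCC (6.35%) are not in the hairpin. At least 2 matches were found in 24.9% of the hairpins, so that this number of matches is common among hairpins of this length. Among 1679 mature miRNAs in the same sequence table, miR-497b alone shared the seed ACCACAG with miR-140-3p, and it is listed at 0 in all 9 libraries. Abundant miRNAs such as miR-126a-3p and miR-486a-5p are also listed at 0 in this table, so a 0 there does not show that miR-497b was absent from the muscle.

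The libraries held between 4761271 and 6277018 counts, and 524 to 602 miRNAs had a count in each. Muscle identity was clear from miR-1a-3p, a miRNA of striated muscle, which took 61.4% to 73.7% of all counts. Levels are given as normalized read counts, the raw count scaled by TMM (trimmed mean of M-values) over the 9 libraries. The mRNAs of Mbnl1 and Mbnl2 were not measured, so a knockout could not be checked by its own gene. The labels number the libraries of a group as replicates without naming the animals, so that p-values measure the spread between these samples, which may in part be technical.

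miR-140-3p was the more abundant arm in all 9 libraries. By raw count it ranked between place 40 and place 74 among the miRNAs of a library, and miR-140-5p ranked between place 91 and place 115.

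The normalized read count of miR-140-5p was 291.1, 299.3 and 311 in WT replicates 1, 2 and 3. In Mbnl1KO replicates 1, 2 and 3 it was 370.8, 683.8 and 487.1. In Mbnl2KO replicates 1, 2 and 3 it was 324.7, 580.2 and 361.1. On this TMM scale all 6 knockout libraries lay above the highest WT library, and replicate 2 was the highest in each knockout. In CPM, which scales by the library total alone, Mbnl2KO replicate 3 (52.2) lay just below WT replicate 3 (52.7), so that Mbnl2KO and WT overlapped, whereas the Mbnl1KO libraries (82.1 to 124) stayed above WT. The means were 300.5 ± 9.99 in WT, 514 ± 158 in Mbnl1KO and 422 ± 138 in Mbnl2KO (SD, n = 3 each). The WT spread was smaller than the SD of 17.9 that counting alone gives at these read numbers. The knockout spreads were several times the counting SD (21.4 in Mbnl1KO and 20.9 in Mbnl2KO). By mean, miR-140-5p was ordered WT, Mbnl2KO, Mbnl1KO, and the ranges of both knockouts overlapped.

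For miR-140-3p the normalized read count was 1068.5, 1361.6 and 1226.7 in WT replicates 1, 2 and 3. It was 1094.1, 1664.8 and 1238.5 in Mbnl1KO replicates 1, 2 and 3. It was 1746.3, 3920.9 and 1429.2 in Mbnl2KO replicates 1, 2 and 3. The Mbnl1KO libraries overlapped those of WT, whereas on the TMM scale all 3 Mbnl2KO libraries lay above the highest WT library and replicate 2 stood far above the other Mbnl2KO libraries. In CPM, Mbnl2KO replicate 3 (206.6) was below WT replicates 2 (230.6) and 3 (207.9), so that the separation rests on the TMM factor of that library (0.826). The means were 1219 ± 147 in WT, 1332 ± 297 in Mbnl1KO and 2365 ± 1356 in Mbnl2KO (SD, n = 3 each). By mean, the order was WT, Mbnl1KO, Mbnl2KO, and neither WT and Mbnl1KO nor Mbnl1KO and Mbnl2KO were separated in their ranges.

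**Figure D1:**
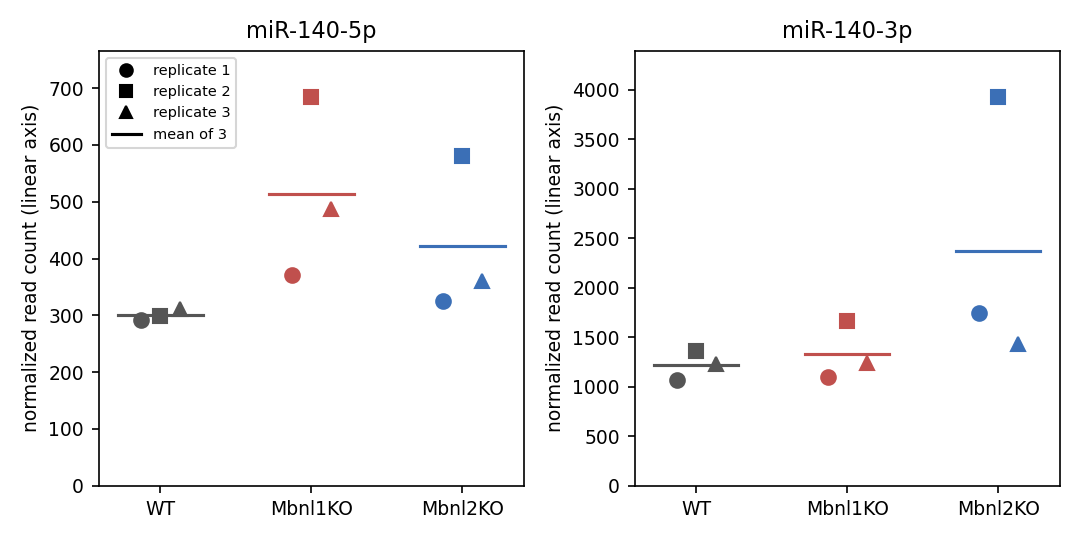
Normalized read count (TMM over 9 libraries, linear axes from 0) of miR-140-5p (left) and miR-140-3p (right) in each library, with the symbol giving the replicate and the line the mean of 3. miR-140-5p lay between 291.1 and 311 in WT and above that in all 6 knockout libraries, and miR-140-3p reached 3920.9 in Mbnl2KO replicate 2.

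To find out whether the arms changed without MBNL2, Mbnl2KO was compared with WT. Both arms had higher mean levels in Mbnl2KO, and neither passed the threshold of an adjusted p under 0.05. For mmu-miR-140-5p, at 300.5 in WT and 422 in Mbnl2KO, the log2 fold change was 0.49 (1.40-fold, standard error 0.178) and the adjusted p 0.122, from the quasi-likelihood test of edgeR and adjusted by Benjamini-Hochberg over 293 miRNAs. For mmu-miR-140-3p, at 1219 in WT and 2365 in Mbnl2KO, the same edgeR fit gave 0.95 (1.94-fold, standard error 0.391) and an adjusted p of 0.281. In edgeR the unadjusted p was 0.0117 for miR-140-5p and 0.0518 for miR-140-3p. DESeq2's Wald test called neither arm after adjustment, and its unadjusted p was 0.0196 for miR-140-5p and 0.0359 for miR-140-3p. The tested miRNAs had a median of 0.02, and the value of miR-140-5p was above 89.8% of theirs and that of miR-140-3p above 96.6%. Among the 293 miRNAs, 17 passed the threshold (5.8%) and 53 had an unadjusted p under 0.05 (18.1%). Groups that did not overlap, with Mbnl2KO above WT, were found for 14% of the 293 miRNAs, so the absence of overlap seen for both arms on the TMM scale is not rare in this comparison.

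The result rested on single libraries of Mbnl2KO. Without Mbnl2KO replicate 2, miR-140-3p was left with a log2 difference of 0.41 (adjusted p = 0.128, edgeR) and that of miR-140-5p 0.21 (adjusted p = 0.503, edgeR). Without Mbnl2KO replicate 3, the lowest of the group for miR-140-3p, both arms passed the threshold, miR-140-3p with 1.19 (adjusted p = 0.0104, edgeR) and miR-140-5p with 0.57 (adjusted p = 0.0468, edgeR).

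Mbnl2KO replicate 2 was high in miR-140-3p. For all 165 miRNAs whose normalized counts averaged over 100, the level in that library was set against the mean log2 level of the other Mbnl2KO libraries. miR-140-3p had the highest gap of all 165, 1.31 on the log2 scale or 2.48-fold. The gap of miR-140-5p was 0.76 (1.69-fold) and ranked 7. The miRNAs between them, named after their values were seen, were miR-381-3p (1.20), miR-300-3p (1.16), miR-182-5p (0.98), miR-434-5p (0.91) and miR-127-5p (0.91). In Mbnl1KO replicate 2 both arms were also high against the other libraries of the group, miR-140-5p by 0.69 (1.61-fold, rank 4 of 165) and miR-140-3p by 0.52 (1.43-fold, rank 8). Among the 165, the highest gaps of that library, again named after their values were seen, belonged to miR-144-5p (1.09), miR-451a (0.86) and miR-182-5p (0.73). The first and second of these are miRNAs of red blood cells. Outside the 165, miR-499-5p, a miRNA of muscle fibres, was at 100.1 in that library and at 10.7 and 9.5 in Mbnl1KO replicates 1 and 3.

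The reads of both arms summed, which do not depend on how they are divided between the arms, gave 1359.6, 1660.8 and 1537.7 normalized counts in WT replicates 1, 2 and 3. They gave 1464.9, 2348.6 and 1725.6 in Mbnl1KO and 2071, 4501.1 and 1790.3 in Mbnl2KO. On this TMM scale every Mbnl2KO library was above every WT library, and Mbnl1KO and WT overlapped. The means were 1519 ± 151 in WT, 1846 ± 454 in Mbnl1KO and 2788 ± 1491 in Mbnl2KO (SD, n = 3 each). The log2 sum was higher by 0.755 in Mbnl2KO than in WT, with p = 0.1 in a two-sided exact permutation test, which is the smallest p that 3 against 3 libraries can give. Scaled by library totals instead, an alternative chosen after seeing the data, the difference was 0.740 with an exact permutation p of 0.3, as the sum of Mbnl2KO replicate 3 (258.8 CPM) fell within the WT range of 218.8 to 281.3. On that scale the Mbnl1KO sums (318.3 to 427.6) lay above WT. Library totals also raised miRNAs in general in this contrast, as the median log2 fold change of all miRNAs was 0.30, against −0.01 with TMM. The separation of the sums is therefore not particular to miR-140.

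The ratio of 5p to 3p reads is taken within a library and does not depend on scaling. It counts reads, and small RNA library preparation does not ligate all ends equally well, so it is not a ratio of molecules. In WT replicate 1 there were 288 reads of miR-140-5p and 1057 of miR-140-3p, a ratio of 0.272. Replicate 2 had 311 and 1415 reads (0.220), and replicate 3 had 251 and 990 (0.254). The Mbnl1KO libraries had 484 and 1428 reads (0.339), 656 and 1597 (0.411), and 564 and 1434 (0.393) in replicates 1, 2 and 3. All 3 Mbnl1KO ratios were above the highest WT ratio. The Mbnl2KO libraries had 320 and 1721 reads (0.186), 618 and 4176 (0.148), and 286 and 1132 (0.253) in replicates 1, 2 and 3. Replicates 1 and 2 of Mbnl2KO were below every WT library, and replicate 3 lay within the WT range.

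As a share of the reads of both arms, miR-140-5p took 21.4%, 18.0% and 20.2% in WT, 25.3%, 29.1% and 28.2% in Mbnl1KO, and 15.7%, 12.9% and 20.2% in Mbnl2KO. The 95% Wilson intervals ranged from 16.3% to 23.7% over the WT libraries and from 23.4% to 31.0% over the Mbnl1KO libraries. In Mbnl2KO the interval of replicate 2, the deepest in miR-140 reads, was 12.0% to 13.9%, and that of replicate 3 was 18.2% to 22.3%. These intervals cover counting error only. Within Mbnl2KO the replicates therefore differed by more than counting error, which is not the only spread between samples.

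**Figure D2:**
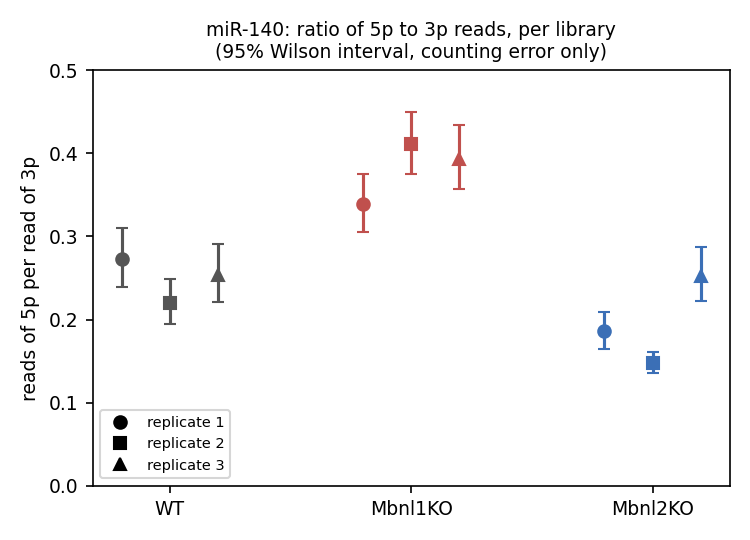
Reads of miR-140-5p per read of miR-140-3p in each library (linear axis from 0), with the 95% Wilson interval of the share converted to a ratio, which covers counting error only. The 3 Mbnl1KO libraries lay at 0.339 to 0.411, above the WT libraries at 0.220 to 0.272, and the Mbnl2KO libraries spread from 0.148 to 0.253.

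The mean ratio was 0.249 ± 0.0267 in WT, 0.381 ± 0.0375 in Mbnl1KO and 0.196 ± 0.0530 in Mbnl2KO (SD, n = 3 each). On the log2 scale, with 0.5 added to each arm, it was −2.01 ± 0.158, −1.40 ± 0.145 and −2.39 ± 0.388 (SD, n = 3 each). The order by mean was Mbnl2KO, WT, Mbnl1KO. Mbnl2KO and WT were not separated in this order, and Mbnl1KO lay above both without overlap.

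For Mbnl2KO against WT, the log2 ratio was lower by 0.376 in an exact permutation test over the libraries, with a two-sided p of 0.2 where 0.1 was the smallest possible. A limma fit of the log2 ratio across 76 arm pairs gave a difference of −0.38 (a ratio 0.771 times that of WT, standard error 0.161). Its 95% interval was −0.69 to −0.06, with an adjusted p of 0.301 (limma, Benjamini-Hochberg over the 76 pairs). The difference thus had an unadjusted p under 0.05 in the main fit and did not pass the threshold. In this fit the spread used for miR-140 came from the trend over all pairs at its read number, so the interval does not carry the larger spread of the Mbnl2KO ratios of miR-140 itself. Of the 76 pairs, 8 had an unadjusted p under 0.05 (10.5%) and 1 passed the threshold (1.32%). That pair, named after its values were seen, was miR-100 (adjusted p = 0.0281, limma), whose rarer arm had a mean count of 10.9. Without Mbnl2KO replicate 2 the difference of miR-140 was −0.19 (adjusted p = 0.766, limma), and without Mbnl2KO replicate 3 it was −0.58 (adjusted p = 0.0554, limma).

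In Mbnl1KO against WT, the contrast that chose miR-140, the arms took different courses. miR-140-5p was 1.63-fold higher in Mbnl1KO (log2 fold change 0.71, standard error 0.179). For miR-140-3p the difference was 0.06 on the log2 scale (standard error 0.157). The log2 ratio was higher by 0.62 (1.53-fold, standard error 0.161). Over the 317 miRNAs tested in this contrast the median was −0.01, 33.1% passed the threshold, and 24.6% had all Mbnl1KO libraries above all WT libraries. Over the 76 arm pairs, 6.58% passed the threshold for the ratio and 15.8% had Mbnl1KO ratios above WT without overlap. Scaling by library totals alone moved the median of all miRNAs by 0.31 on the log2 scale in this contrast. Relative to the median of all miRNAs, miR-140-5p stood at 0.72 with TMM and at 0.68 with library totals, and miR-140-3p at 0.07 and 0.04. The direction of miR-140-3p was not fixed, as its log2 fold change ran from −0.12 to 0.34 over the alternatives.

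Between the knockouts, again without a test, the log2 ratio was 0.99 higher in Mbnl1KO than in Mbnl2KO (1.99-fold, standard error 0.161), and the ratios did not overlap. That was so for 23.7% of the 76 pairs in this direction. The level of miR-140-5p differed by 0.22 (standard error 0.265) and that of miR-140-3p by −0.89 (0.539-fold, standard error 0.469), on the log2 scale, and the libraries of both groups overlapped for each arm. Leaving out Mbnl2KO replicate 2 gave −0.29 for miR-140-3p. For miR-140-5p, each library left out in turn gave values from −0.07 (without Mbnl1KO replicate 2) to 0.55 (without Mbnl2KO replicate 2), so that its direction was not fixed. The 3 contrasts share libraries pairwise, so that their values are not independent of each other.

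Both arms of 769 miRNAs are listed in the table, and for 76 of them each arm had a mean count of at least 10. The 5p arm was the more abundant in WT for 42 pairs and the 3p arm for 34. In WT the 3p arm of miR-140 was 4.03-fold more abundant than the 5p arm, and 22 pairs were biased towards 3p more strongly. The median pair had arms that differed by 2.88 on the log2 scale, so that the arms of miR-140 were nearer to each other than those of most pairs, and 25 pairs were nearer still.

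Among the 24 pairs with a mean count of at least 100 in each arm, the next pairs in the order of the WT ratio show how other hairpins behaved. Towards stronger 3p bias stood miR-423, with a log2 ratio of −2.46 in WT, −2.55 in Mbnl1KO and −2.40 in Mbnl2KO. It was followed by miR-434, an imprinted miRNA of the Dlk1-Dio3 region, with −3.0, −1.46 and −2.75, and by miR-29c, with −3.03, −3.28 and −3.0. Towards equal arms stood miR-676 with −1.08, −1.0 and −0.65, miR-199a with −0.38, 0.01 and −0.26, and miR-127, of the same imprinted region, with −0.32, −0.17 and −0.69 in WT, Mbnl1KO and Mbnl2KO. miR-140 itself had −2.01, −1.40 and −2.39. Its ratios spanned 1.47 on the log2 scale over the 9 libraries, against 1.94 for miR-434 and 0.354 for miR-423.

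Within a group, the log2 ratio of miR-140 had an SD of 0.256, and the median of the 24 pairs was 0.197, with 4 pairs above miR-140. By absolute size, its difference between Mbnl2KO and WT ranked 2 of the 24 pairs and 24 of all 76, many of which have few reads. The median absolute difference over the 76 pairs was 0.25 in Mbnl2KO and 0.26 in Mbnl1KO.

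**Figure D3:**
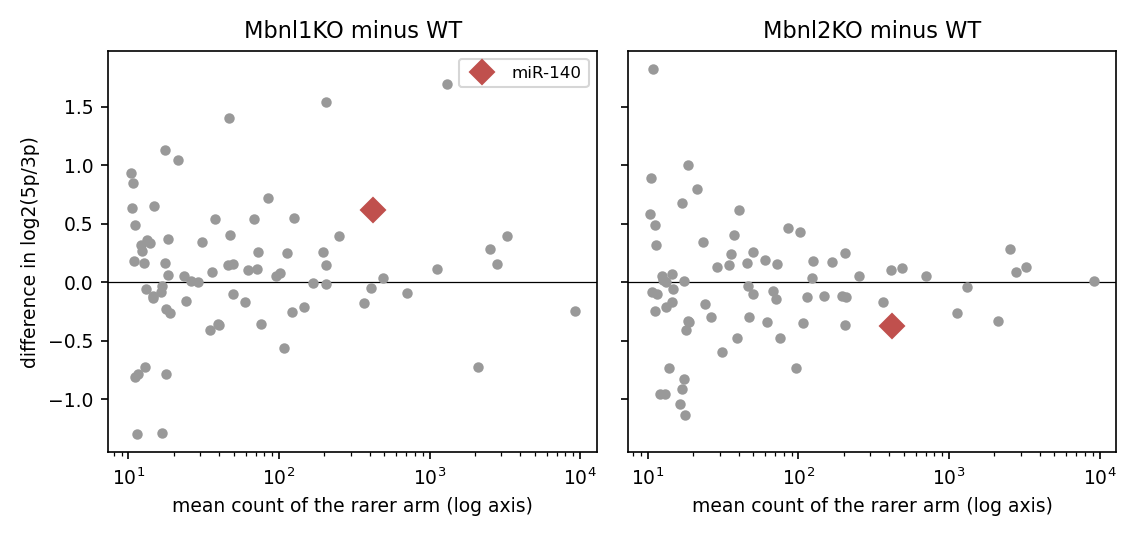
Difference in the log2 ratio of 5p to 3p from WT, for Mbnl1KO (left) and Mbnl2KO (right), against the mean count of the rarer arm over the 9 libraries (log axis), with 1 point for each of 76 arm pairs. miR-140 (diamond) lay at 0.62 in Mbnl1KO and −0.38 in Mbnl2KO, and pairs with few reads spread the most.

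The arms of miR-140 followed each other only loosely over the 9 libraries (Spearman's rho 0.53, Pearson's r 0.57 of log2 normalized counts). All likenesses given here are a description over 9 libraries that share groups and scaling. Of 163 other miRNAs averaging over 100 normalized counts, those most like miR-140-5p were miR-409-3p (rho 0.93), miR-127-3p (0.90), miR-5121 (0.88), miR-182-5p (0.87) and miR-434-5p (0.87). miR-409, miR-127 and miR-434 come from the imprinted Dlk1-Dio3 region. The most like miR-140-3p were miR-222-3p (0.85), miR-10b-5p (0.85), miR-182-5p (0.83), miR-150-5p (0.83), a miRNA of lymphocytes, and miR-335-5p (0.82). miR-182-5p was the sole miRNA in both lists, and it was also among the highest gaps of Mbnl2KO replicate 2 and Mbnl1KO replicate 2.

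Because miR-140 is a miRNA of cartilage, other miRNAs known from cartilage and connective tissue were read beside it. The list held both arms of miR-455, which is expressed with the collagen gene Col27a1 in chondrocytes, and both arms of miR-199a, miR-199b and miR-214, which are abundant in fibroblasts. None of these 8 was listed at 0. Their summed normalized count was 9926.3 to 10406.8 in WT. It ranged from 8062.1 to 9238.9 over Mbnl1KO and from 9205.3 to 11919.5 over Mbnl2KO. The highest of all 9 libraries was Mbnl2KO replicate 2, and the lowest was Mbnl1KO replicate 3.

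In Mbnl2KO against WT, 7 of the 8 could be tested, and none passed the threshold in either direction (edgeR, against 5.8% of all miRNAs). At an unadjusted p under 0.05 the count was also 0, and DESeq2's Wald test gave 0. Their median log2 fold change was 0.08, beside 0.02 for all miRNAs, and 6 of the 7 values were above 0. miR-455-3p had normalized counts of 557, 446.5 and 402.7 in WT and 496.2, 662.9 and 582.1 in Mbnl2KO replicates 1, 2 and 3. Its groups overlapped, and its mean was higher by 0.30 on the log2 scale (adjusted p = 0.339, edgeR). In Mbnl2KO replicate 2, miR-140-3p was 1.69 above the WT mean on the log2 scale and miR-140-5p 0.95, whereas miR-455-3p was 0.51 above it, miR-199a-5p 0.34 and miR-199a-3p 0.14. The part of connective tissue in the miR-140 levels was not tested.

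In Mbnl1KO, all 7 tested members had a log2 fold change below 0 against WT, with a median of −0.33 beside −0.01 for all miRNAs. miR-199a-3p (−0.43) and miR-199b-3p (−0.43) passed the threshold and were lower, as were 14.2% of all miRNAs in this contrast. Both have the same mature sequence, so the division of their reads between the entries, and with it the arm ratio of miR-199a, is uncertain. miR-455-3p had normalized counts of 492.6, 234.5 and 451.7 in Mbnl1KO replicates 1, 2 and 3, so that its lowest value was in the library with the highest miR-140-5p. Of 5 abundant miRNAs of this list, plotted beside miR-140, miR-199a-5p lay above its WT mean in Mbnl1KO replicate 2. So did miR-455-3p and miR-214-3p in Mbnl1KO replicate 1. The other Mbnl1KO values of these 5 ran from −0.02 (miR-199a-5p, replicate 3) to −0.99 (miR-455-3p, replicate 2) on the log2 scale, several of them near the WT mean. The part of connective tissue in the miR-140-5p level was not tested.

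**Figure D4:**
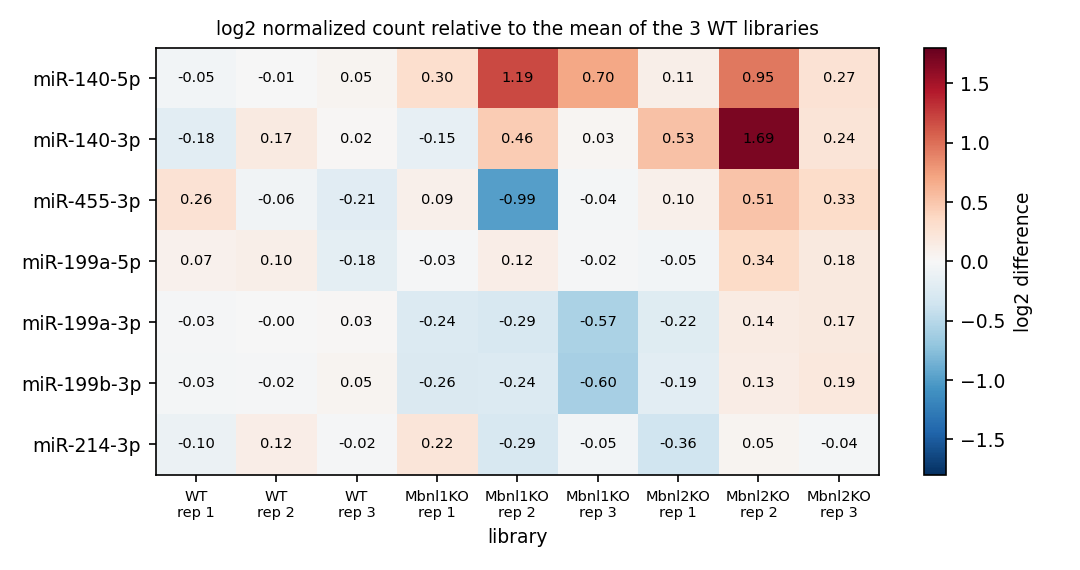
Normalized counts relative to the mean of the 3 WT libraries (log2 difference, colour scale and printed values) of both miR-140 arms and 5 miRNAs of cartilage and connective tissue in the 9 libraries. miR-140-3p stood at 1.69 in Mbnl2KO replicate 2, where the 5 other miRNAs lay between 0.05 and 0.51.

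Markers of other cells of muscle moved as follows. Of 4 miRNAs of the vessel wall, miR-143-3p rose in Mbnl2KO (log2 fold change 0.48, adjusted p = 0.0169, edgeR), as 3.41% of all miRNAs did, and the other 3 did not pass the threshold. The summed count of the 4 was 28953.2 to 31528.6 in WT, 38033.5 to 42688 in Mbnl2KO and 28057 to 43129.5 in Mbnl1KO. In Mbnl2KO replicates 1, 2 and 3 it was 38505.7, 38033.5 and 42688. It was 28057, 43129.5 and 42433.2 in Mbnl1KO replicates 1, 2 and 3. Replicate 2, the highest of each knockout in summed miR-140 counts, had the lowest sum in Mbnl2KO and the highest in Mbnl1KO. Both arms of miR-126a, the defining miRNA of endothelium, are listed at 0 in all libraries and gave no information. The 10 miRNAs of immune and blood cells, of which miR-142a-3p is listed at 0, summed to 2827.4 to 3294.7 in WT and 3070.2 to 3274.4 in Mbnl2KO. None of the 8 tested passed the threshold in Mbnl2KO with edgeR or with DESeq2's Wald test, and 2 had an unadjusted p under 0.05 in edgeR. Over all miRNAs these shares were 5.8% and 18.1%. In Mbnl1KO they summed to 2905.3 to 3648.5, and 4 of the 8 passed the threshold, beside 33.1% of all miRNAs. miR-155-5p was higher than in WT (log2 fold change 0.86), and miR-142a-5p (−0.84), miR-223-3p (−0.87) and miR-146a-5p (−0.49) were lower.

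Of 8 miRNAs of muscle fibres, 6 were tested. miR-206-3p, a miRNA of slow and regenerating fibres, rose in Mbnl2KO (log2 fold change 0.89, adjusted p = 0.00076, edgeR) and was the sole one of the 6 to pass, where 3.41% of all miRNAs rose. Of the 6 values, 2 were above 0, and their median was −0.15. In Mbnl1KO miR-206-3p (1.93) and miR-133b-3p (0.71), which share a locus, passed the threshold and were higher than in WT, as were 18.9% of all miRNAs. The list did not move one way, as miR-1a-3p had −0.40 and miR-133a-5p −0.22 in the same contrast. With edgeR, miR-1a-3p missed the threshold narrowly (adjusted p = 0.0502, edgeR), and miR-133a-5p did not pass (adjusted p = 0.230, edgeR). DESeq2's Wald test called 3 of the 6 in this contrast, beside 2 with edgeR, so the lower miR-1a-3p is not to be read as unchanged. miR-486a-5p, a further muscle miRNA, is listed at 0. The part of these cell types in the levels of miR-140 was not tested.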

How the data were processed

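Small RNA libraries (NEXTflex kit, total RNA) of quadriceps from WT, Mbnl1KO and Mbnl2KO mice, 3 per group, were analysed, grouped by the labels. The authors deposited raw counts of reads per mature miRNA, without normalization. Per the study's methods, reads were clipped, collapsed, aligned without mismatches to miRBase precursors, and summed within each mature region and a small margin. Whether this made the deposited table, and any build, is not given in the sources used here. DESeq2 is named in the submitters' processing notes. Of 1966 miRNAs, 1057 were at 0 throughout and left out of the fits.

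Both arms were chosen, and all lists and tests set, with earlier results of these data known. Levels were fitted per pair of groups (6 libraries) with edgeR 4.0.16 (robust quasi-likelihood test, TMM, Benjamini-Hochberg) for all miRNAs that averaged above 10 normalized counts. Both arms passed this filter in all 3 contrasts. Log2 ratios, with 0.5 added to each arm, were fitted with limma 3.58.1 over all 9 libraries for arm pairs with a mean count of at least 10 in each arm, with the prior variance following the count of the rarer arm. The threshold was an adjusted p of 0.05. Other miRNAs were named if they shared a seed with miR-140-3p, were the 5 most alike over the libraries, were the 3 next arm pairs on either side of the WT ratio, or belonged to a marker list. Total counts of 4761271 to 6277018 gave 251 to 656 reads of miR-140-5p and 990 to 4176 of miR-140-3p per library. Replicates differed by more than counting error (chi-square per degree of freedom 38.8 to 272 over all miRNAs).

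R 4.3.3, DESeq2 1.42.0, Python 3.11.15, pandas 2.3.3, NumPy 2.4.6, SciPy 1.17.1, matplotlib 3.10.9 and RNAfold 2.7.2 were used, and both fits were tested on simulated data. The alternatives were other scalings (DESeq2 size factors, library totals, library totals without miR-1a-3p), DESeq2's Wald test, other filters and pseudocounts, all 9 or only 6 libraries, 1 prior variance for all pairs, the replicate number as a block, and each library left out in turn. Scaling the summed arms by library totals was added after seeing the data.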

Additional observations from a re-analysis of the deposited data

How the results depend on the processing

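Neither arm nor the ratio reversed its direction in Mbnl2KO against WT under any alternative that was run. The ratio difference lay between −0.58 and −0.19 over 12 alternatives (adjusted p 0.0554 to 0.766, limma), and none passed the threshold. Its unadjusted p was 0.020 in the main fit and 0.137 with 1 prior variance for all pairs (limma). Without WT replicate 1, Mbnl2KO replicate 1 or Mbnl2KO replicate 2 it was 0.090, 0.051 and 0.265 (limma). miR-140-5p lay between 0.21 and 0.61 over 14 alternatives (adjusted p 0.0468 to 0.503), with the same range when each library was left out, and passed only without Mbnl2KO replicate 3 (0.57). miR-140-3p lay between 0.41 and 1.19, again the range with each library left out (adjusted p 2.9e-05 to 0.582). It passed in 2 of 14 alternatives, without Mbnl2KO replicate 3 (1.19) and with the replicate block. DESeq2's Wald test gave 0.94 (adjusted p = 0.265) for miR-140-3p and 0.48 (adjusted p = 0.198) for miR-140-5p.

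The replicate number did not pair the samples: deviations of equally numbered Mbnl2KO and WT libraries had correlations of −0.0848, 0.0808 and 0.0362. With the replicate block, miR-140-3p had 0.82 (adjusted p = 2.9e-05, edgeR), 21 miRNAs passed in place of 17, and 0 arm pairs passed in place of 1. The block is a number alone and says nothing of the size of the effect.

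In Mbnl2KO against WT 17 miRNAs passed the threshold, against 7 with library totals, 9 with a mean normalized count above 100, 11 with all 9 libraries in the fit, and 6 to 25 with each library left out. Leaving out WT replicate 1 gave 10, WT replicate 2 gave 6 and Mbnl2KO replicate 1 gave 8. The 1 arm pair that passed was lost (0 pairs) with 5 added to each arm, with at least 100 counts or at least 1 count in each arm, and with the 6 libraries of the comparison. With each library left out, 0 to 2 passed. The causes were not tested.

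For the values given without a test, the ratio stayed between 0.53 and 0.70 in Mbnl1KO against WT and between 0.81 and 1.19 in Mbnl1KO against Mbnl2KO. miR-140-5p lay between 0.46 and 0.98 in Mbnl1KO against WT and between −0.07 and 0.55 against Mbnl2KO. miR-140-3p in Mbnl1KO against Mbnl2KO moved to −0.29 without Mbnl2KO replicate 2 and lay between −1.18 and −0.29 with each library left out.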
